A study of Mus musculus with 4 samples.

Results

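The CpG sites described here had higher DNA methylation in Chr4-cl KO than in WT ES cells after growth in 2i + Vitamin C. They were chosen by that difference itself: a CpG position had to be listed once per library, to have at least 20 reads in both 2i + Vitamin C libraries, and to have a methylation level (methylated reads as a percent of all reads) at least 20 percentage points higher in KO. Of 318775 CpG sites with enough reads, 2082 met the rule, which is 0.653%, while 6631 sites (2.08%) were lower in KO by at least as much. The values in 2i + Vitamin C are therefore given as a description, with no test. The serum values were not used by the rule.

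The assay was RRBS-seq, where DNA cut with MspI (recognition sequence CCGG) is treated with bisulfite, so that unmethylated cytosines are read as thymine. Mouse ES cells of both genotypes, WT and Chr4-cl KO, were kept in serum or moved to 2i + Vitamin C for 1 week, which gave 4 libraries with 1 library per group and no replicate check for any difference. The Chr4-cl KO cells lack a cluster of KRAB-ZFP genes on chromosome 4, deleted with Cas9 and a pair of guide RNAs in ES cells of mixed B6 and 129 background that carry a Cre-ERT transgene at ROSA26, and each genotype was represented by 1 line. The clones were made with a transiently transfected plasmid that carries a puromycin resistance gene under a Pgk promoter.

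In mammals most CpG sites outside CpG islands carry 5-methylcytosine, which maintenance and de novo DNA methyltransferases add and which TET enzymes oxidize on the way to its removal. The inhibitors of MEK and GSK3 in 2i keep ES cells in a naive state in which methyltransferase activity is reduced, and Vitamin C stimulates TET enzymes, so the medium lowers methylation over most of the genome. KRAB-ZFPs bind sequence motifs, many of them in transposable elements, and recruit KAP1, which brings in H3K9 methylation and can preserve DNA methylation when the rest of the genome loses it.

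Total reads over CpG sites ranged from 42684672 in KO 2i + Vitamin C to 90649194 in WT 2i + Vitamin C. The KO 2i + Vitamin C library listed 5424640 rows of CpG positions, 1575598 of them in a second joined table. The WT one listed 2123112 rows and had no second table. Also without that table, the smaller number of reads in KO 2i + Vitamin C was spread over more positions. Across the part of the cluster from Gm13051 to Gm13145 on chromosome 4 the libraries labelled KO held 1.74 (serum) and 5.37 (2i + Vitamin C) reads per 1000000 reads, against 404 and 393 in WT, as the labels state. Promoters of the ES cell marker genes with covered sites, among them Pou5f1, Sox2 and Klf4, had mean methylation of 0 to 19.4% in the 4 libraries. Of the fibroblast markers with covered promoter sites, Col1a1 was at 67.9% and 79.8% in WT and KO serum and Twist1 at 1.89% and 3.02%.

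The sequences below carry the main observations and are given on the plus strand of mm9 (read from the NCBIM37 reference), with the CpG dinucleotides of the higher sites in capitals. The first stretch lies upstream of Pgk1, a glycolytic enzyme gene, at chrX:103382078-103382233, and holds 8 of the 9 higher sites of that promoter. The next 2 lie in genes for structured non-coding RNAs, at chr4:43505734-43505771 and chr14:51427259-51427352. The last 4 are 30-base stretches around a higher site of the lead region of sequence groups 1, 2, 3 and 7, at chr1:177162259-177162288, chrX:75876531-75876560, chr1:104897562-104897591 and chr1:21572013-21572042, and stand for sequences that occur in many copies.
Pgk1 upstream: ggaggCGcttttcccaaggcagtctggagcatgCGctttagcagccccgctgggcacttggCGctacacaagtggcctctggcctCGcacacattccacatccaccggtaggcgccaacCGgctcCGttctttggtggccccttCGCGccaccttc
RNase_MRP: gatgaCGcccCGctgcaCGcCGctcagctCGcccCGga
AC027184.1: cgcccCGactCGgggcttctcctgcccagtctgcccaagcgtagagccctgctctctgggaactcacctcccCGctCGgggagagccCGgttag
Sequence group 1: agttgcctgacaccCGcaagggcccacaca
Sequence group 2: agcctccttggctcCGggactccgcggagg
Sequence group 3: aggctgcagacagcCGgccaccatccggac
Sequence group 7: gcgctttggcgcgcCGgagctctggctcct

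Over the 2082 higher sites, mean methylation in 2i + Vitamin C was 29.3% in WT and 57.0% in KO cells. The median difference was 24.7 points, with quartiles at 21.9 and 30.1 and a largest value of 90.7 points. The distribution was crowded against the threshold: 1075 sites differed by 20 to 25 points, 475 by 25 to 30, 372 by 30 to 40, 123 by 40 to 60, and 37 by more. In WT, 681 sites were below 20% and 180 of those were below 5%, and no site was above 80%. In KO, 215 sites were above 80%.

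Like the lower sites, the higher sites had fewer reads than sites in general. Their median coverage was 50.5 reads in WT and 31 in KO 2i + Vitamin C, against 59 and 35 at the lower sites and 103 and 54 over all 318775 sites, and 46.5% of them had only 20 to 29 reads in KO, against 20.5% of all sites. At the edge of the rule, 35 sites differed by exactly 20 points. One of them, in an intron at position 91516420 of chromosome 1, had 10 methylated of 25 reads in WT and 12 of 20 in KO. The nearest site outside, an intergenic one at position 31928407 of chromosome 6, had 49 of 87 and 29 of 38 reads, a difference of 19.99 points. Between 19 and 20 points lay 340 sites that were not members, and between 20 and 21 points 297 that were.

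The higher sites lay mainly away from genes. Of the 2082, 1132 (54.4%, 95% Wilson interval 52.2 to 56.5) were intergenic, 516 (24.8%) intronic, 239 (11.5%) exonic and 195 (9.37%, interval 8.19 to 10.7) within 1 kb of an annotated transcription start. Over all sites with enough reads, 60.1% were within 1 kb of a start and 17.9% were intergenic. The 6631 lower sites fell between, with 15.2% near starts and 42.0% intergenic. The median distance to a start was 23184 bp for the higher and 12087 bp for the lower sites, and 448 bp over all sites. These intervals cover counting error only, and neighbouring CpG sites are not independent.

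**Figure D1:**
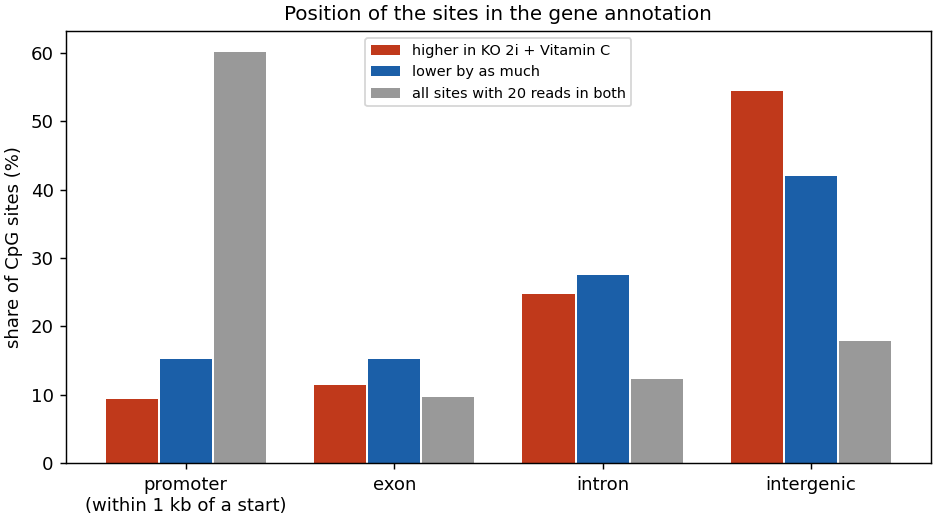
Share of CpG sites (%, y axis) in each class of the gene annotation (x axis) for the 2082 sites higher in Chr4-cl KO 2i + Vitamin C, the 6631 lower by as much and all 318775 with 20 reads in both libraries. Intergenic sites make up 54.4% of the higher sites and 17.9% of all sites.

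The sequence around the higher sites was moderately CpG-rich. The median number of CpG dinucleotides in 200 bp was 9 at the higher sites, 6 at the lower sites and 16 over all sites, and the median GC content was 59%, 55.5% and 65%. The site itself was part of a CCGG sequence for 36.1% of the higher sites, for 27.6% of the lower sites and for 18.6% of all sites. By chromosome, the share of sites that were higher ran from 0.339% on chromosome 17 to 0.976% on chromosome 6 among autosomes, and was 1.79% on the X chromosome, where 109 of 6089 sites were higher. The share of lower sites on the X chromosome was 3.63%, against 1.58 to 2.45% on the autosomes. Within 5 kb of an ETn capture probe, 2 of 467 sites were higher (0.428%, against 0.653% over all sites) and 69 (14.8%) were lower. Near RLTR4 probes 0 of 249 sites were higher and 44 (17.7%) were lower. ETn elements are endogenous retroviruses bound by KRAB-ZFPs of the deleted cluster.

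Much of this sequence occurs in many copies. A site was counted as multicopy when at least 2 of 4 24-base stretches around it occur 10 or more times in the genome, and 945 of the 2082 higher sites (45.4%) were multicopy, against 20.3% of the lower sites and 6.21% of all sites. With 50-base paired reads, the copy a read comes from is uncertain at such sites, and reads of near-identical copies may be exchanged. Without multicopy sequence, 1137 higher and 5283 lower sites remained.

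The higher sites were joined into 1462 regions where neighbours were at most 500 bp apart. A single site made up 1137 regions, 184 regions had 2 sites, 106 had 3 or 4, and 35 had 5 or more, with 223 sites in all. Aligning 300 bp around each region against the others grouped regions of shared sequence, each group being taken around the region with the most matches. The 9 groups with at least 10 regions were then matched to all 318775 sites. No annotation of transposable elements was used, so the groups are numbered and not assigned to a family. Since the groups were built from the higher sites, their shares of higher sites are a description that this choice raises.

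Groups 1 and 7 were the groups with more higher than lower sites, and group 1 was by far the larger. It matched 5515 sites, of which 527 (9.56%) were higher and 284 (5.15%) lower, and it held 25.3% of all higher sites but 1.73% of all sites. These 527 sites were spread over 274 regions on 20 chromosomes. Over all 5515 matched sites, mean methylation was 46.3% in WT and 48.8% in KO 2i + Vitamin C, so the group as a whole differed by far less than the sites chosen from it. In serum the group averaged 78.4% in WT and 84.2% in KO at 4361 sites, and its 412 higher sites with serum coverage 78.4% and 84.7%.

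The lead regions of groups 2 and 3 repeat in tandem. Around the lead region of group 2 the sequence was 64.0% identical to itself at a shift of 203 bp over 397 aligned bases, and that of group 3 69.2% at 214 bp over 386 bases. Tandem units of about this length at the start of young mouse LINE-1 elements act as their promoters, but whether these groups are such units was not tested. Group 2 had 176 higher and 340 lower sites among 4419 and group 3 had 76 and 78 among 2478. In groups 4, 5, 6, 8 and 9 the lower sites outnumbered the higher sites, by 101 to 22, 147 to 23, 60 to 11, 70 to 12 and 29 to 16.

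Sequence group 7 was small but had the highest share of higher sites. Of its 267 sites 53 (19.9%) were higher and 24 (8.99%) lower, in 14 regions on 8 chromosomes. Its higher sites had a median of 30 reads in WT and 100 in KO 2i + Vitamin C, and it was the only group in which KO had the larger median at the higher sites. The 12 of them with at least 20 reads in both serum libraries averaged 57.9% in WT and 49.2% in KO serum. Whether the copy number of these sequences differed between the lines was not tested.

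**Figure D2:**
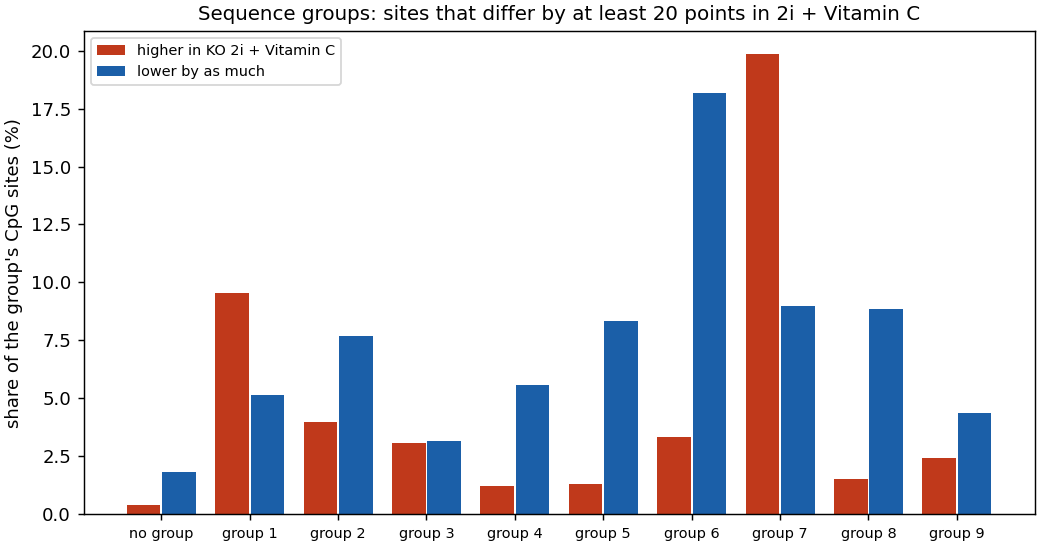
Share of CpG sites (%, y axis) in each sequence group, or in none, that were at least 20 points higher (red) or lower (blue) in Chr4-cl KO than in WT cells in 2i + Vitamin C. Group 1 had 9.56% higher and 5.15% lower sites, and group 7 19.9% and 8.99%.

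In serum, most of these sites were highly methylated in both genotypes. At least 20 reads in both serum libraries were present at 1389 of the higher sites (66.7%) and at 87.6% of all sites. These 1389 sites averaged 79.8% in WT and 84.1% in KO serum, with medians of 86.5% and 90.3%. The lower sites averaged nearly the same, 79.5% and 84.0%, and all sites 24.1% and 27.1%. Of the 1389 higher sites, both libraries were above 80% at 873 and both between 20% and 80% at 207. WT was between 20% and 80% with KO above 80% at 198. Both were below 20% at 30 sites. From serum to 2i + Vitamin C, mean methylation at these 1389 sites fell by 48.8 points in WT and fell by 26.02 points in KO.

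**Figure D3:**
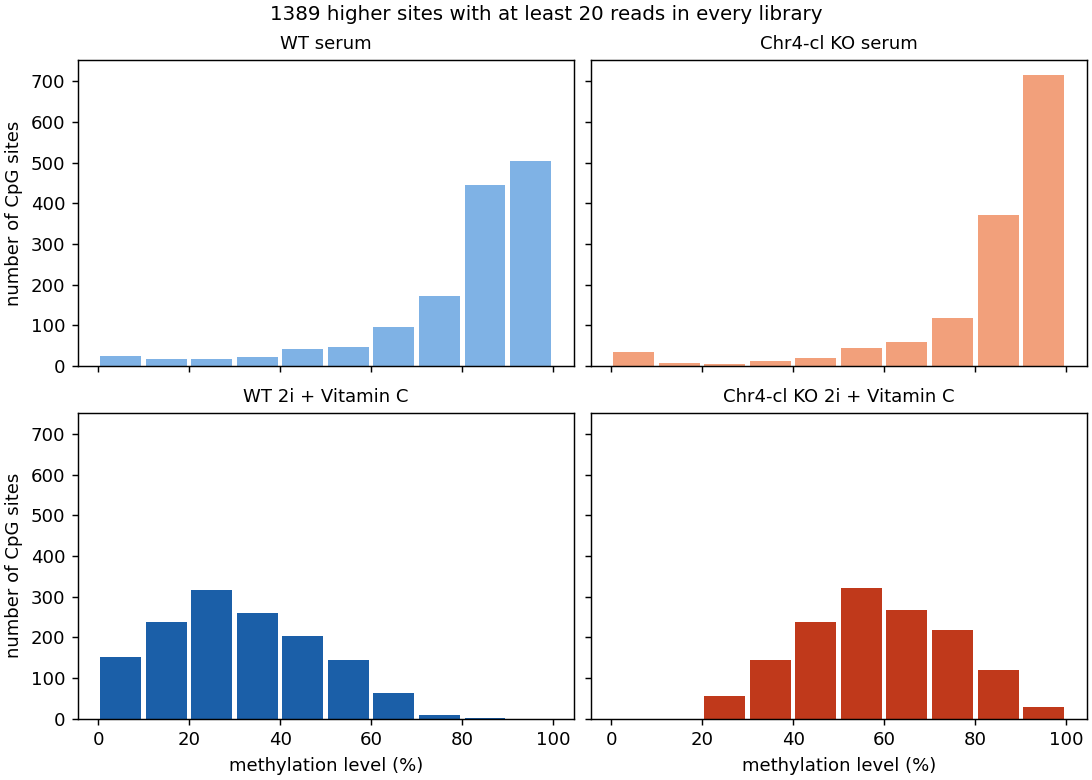
Number of CpG sites (y axis) by methylation level in 10-point bins (x axis) for the 1389 higher sites with at least 20 reads in every library, 1 panel per library. In KO serum 716 of them were at 90 to 100% and in WT serum 505, while the 2i + Vitamin C panels show the difference by which the sites were chosen.

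The serum difference between KO and WT was small beside the difference in 2i + Vitamin C. It averaged 4.29 points (counting error interval 3.92 to 4.66) with a median of 3.56 points, against a mean of 2.96 and a median of 1.18 points over the 279234 sites with enough reads in all libraries. KO was above WT at 66.2% of the higher sites and at 65.6% of all sites. The lower sites, chosen by the opposite difference, gave a mean of 4.47 points in serum. At WT serum levels of 20% or more the higher sites did not exceed all sites in the mean. Above 80% the mean difference was 1.01 points at the higher sites and 1.02 over all sites, and between 20% and 80% it was 10.4 and 12.6 points. Below 20% it was 16.8 points at 42 higher sites and 1.81 over all 196561 sites, with medians of 2.10 and 0.833. Those 42 include 8 sites of the Pgk1 promoter, described below.

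Starting from the same serum level, the higher sites stood out in both 2i + Vitamin C libraries. Among sites above 80% in WT serum, the 931 higher sites were at 37.1% in WT and 62.9% in KO 2i + Vitamin C, and all 49460 sites were at 50.8% and 46.1%. These higher sites thus lay below the others in WT and above them in KO, as the rule favours. Of sites between 20% and 80% in WT serum, 416 of 33213 were higher, and of sites below 20% only 42 of 196561.

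Single sites were also compared between the serum libraries by a two-sided Fisher's exact test of their methylated and other reads, with Benjamini-Hochberg adjustment over all 445100 sites with at least 20 reads in both, an adjusted p below 0.05 and a difference of at least 20 points. The test compares 2 libraries, not genotypes. It called 49 of the 1389 sites (3.53%) higher in KO serum, against 2.43% of all sites tested, and 20 (1.44%) lower, against 0.141% of all sites tested. Among the lower sites in 2i + Vitamin C the shares were 8.84% and 2.16%. Between 20% and 80% in WT serum the first excess was not seen: 39 of 416 higher sites (9.38%) were called higher in KO serum, against 13.4% of all sites in that range. A site above 80% cannot be called higher by 20 points. Below 20% the excess was present, with 10 of 42 higher sites (23.8%) called higher, against 0.941% of all sites in that range. Of these 10 calls, 8 were in the Pgk1 promoter. The calls lower in KO serum were 2.40% against 0.813% between 20% and 80%, and 1.07% against 0.249% above 80%. The 49 calls fell in 33 regions, and 8 of them were in the Pgk1 promoter. They averaged 45.97% in WT serum, 86.3% in KO serum, 16.6% in WT 2i + Vitamin C and 52.4% in KO 2i + Vitamin C. The 20 sites lower in KO serum lay in 12 regions, with 7 of them in AC157822.1, and without that region 13 remained.

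The Pgk1 promoter was the clearest place where KO exceeded WT in both media. All 9 covered sites within 3 kb were higher sites, at positions -356 to -37 relative to the start. Pooled over the 9 sites, methylation was 6.06% of 297 reads in WT serum, 83.7% of 3533 reads in KO serum, 2.94% of 545 reads in WT 2i + Vitamin C and 81.3% of 675 reads in KO 2i + Vitamin C. At these sites the lowest level in a KO library was 76.3% and the highest in a WT library 12.5%, the latter from 8 reads in WT serum. In 2i + Vitamin C a gap is required by the rule. The sites lie in 1 short stretch and are not replicates of a genotype, which has 1 library per medium. All 8 sites with enough serum reads were called higher in KO serum.

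The number of reads at Pgk1 also differed. The region had 4.23 reads per 1000000 in WT serum, 39.98 in KO serum, 6.01 in WT 2i + Vitamin C and 15.8 in KO 2i + Vitamin C. A single site had up to 775 reads in KO serum and at most 44 in WT serum. The plasmid used to select the clones carries a Pgk promoter, and whether the methylated reads come from the X chromosome or from plasmid sequence was not tested.

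Genes for structured non-coding RNAs held another set with large differences. Of 64 covered sites in genes of the annotation class misc_RNA, 28 (43.8%) were higher and 1 was lower, and the 28 were in 3 genes. This class was chosen after its values were seen. RNase_MRP on chromosome 4 encodes the RNA of the mitochondrial RNA processing ribonuclease (RefSeq lists Rmrp beside Ccdc107). AC157822.1 on chromosome 12 lies between Nemf and Arf6, next to Nemf where RefSeq places Rn7s2, a gene for the RNA of the signal recognition particle. AC027184.1 on chromosome 14 is the neighbour of Parp2, where RefSeq places Rpph1, the RNA of ribonuclease P. The matches to RefSeq names rest on gene order alone, since that table is of another build.

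RNase_MRP had the most higher sites of any region, 15 within 109 bp at chr4:43505739-43505847, where it overlaps the start of Ccdc107. Pooled methylation was 57.2% of 145 reads in WT serum (interval 49.1 to 65.0), 2.31% of 173 reads in KO serum (0.90 to 5.79), 2.51% of 439 reads in WT 2i + Vitamin C and 78.5% of 437 reads in KO 2i + Vitamin C. The libraries high here were WT serum and KO 2i + Vitamin C, so the genotypes were in opposite order in the 2 media. Neighbouring sites are read in the same fragments, so intervals on pooled reads are narrower than the number of independent molecules allows. No site of this region reached 20 reads in both serum libraries, so none was tested.

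AC157822.1 had the same order of libraries. At its 8 higher sites methylation was 25.6% of 481 reads in WT serum, 1.76% of 455 reads in KO serum, 1.71% of 703 reads in WT 2i + Vitamin C and 57.6% of 1502 reads in KO 2i + Vitamin C. In serum 7 of the 8 sites were called lower in KO. The gene is identical over all 297 bases to AC099934.1, a second copy on the same chromosome, whose 10 covered sites were between 1% and 1.69% methylated in the 4 libraries when pooled. AC027184.1 was at 10.6%, 2.15%, 1.32% and 28.2% in the same order of libraries, with 149 to 227 reads each, and none of its 5 sites was called in serum.

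At these genes the 2 libraries with high levels also covered CpG positions that the other 2 did not. In AC157822.1, 11 positions had at least 10 reads in KO 2i + Vitamin C and none in WT 2i + Vitamin C. They held 1282 reads in KO 2i + Vitamin C (98.5% methylated), 230 in WT serum (99.6% methylated) and 0 in both other libraries. RNase_MRP had 5 such positions, with 117 reads in KO 2i + Vitamin C (89.7% methylated), 55 in WT serum (87.3%) and 0 in the others, and AC027184.1 had 2. Over the genome there were 57810 positions of this kind, 22.6% methylated, and they lay within 100 bp of 5.04% of the higher sites, 5.26% of the lower sites and 8.79% of all sites. The deposited files of WT serum and KO 2i + Vitamin C are also the ones that hold a second joined table, but all of these positions in the 3 genes came from the first table of both files. The origin of these reads was not tested.

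**Figure D4:**
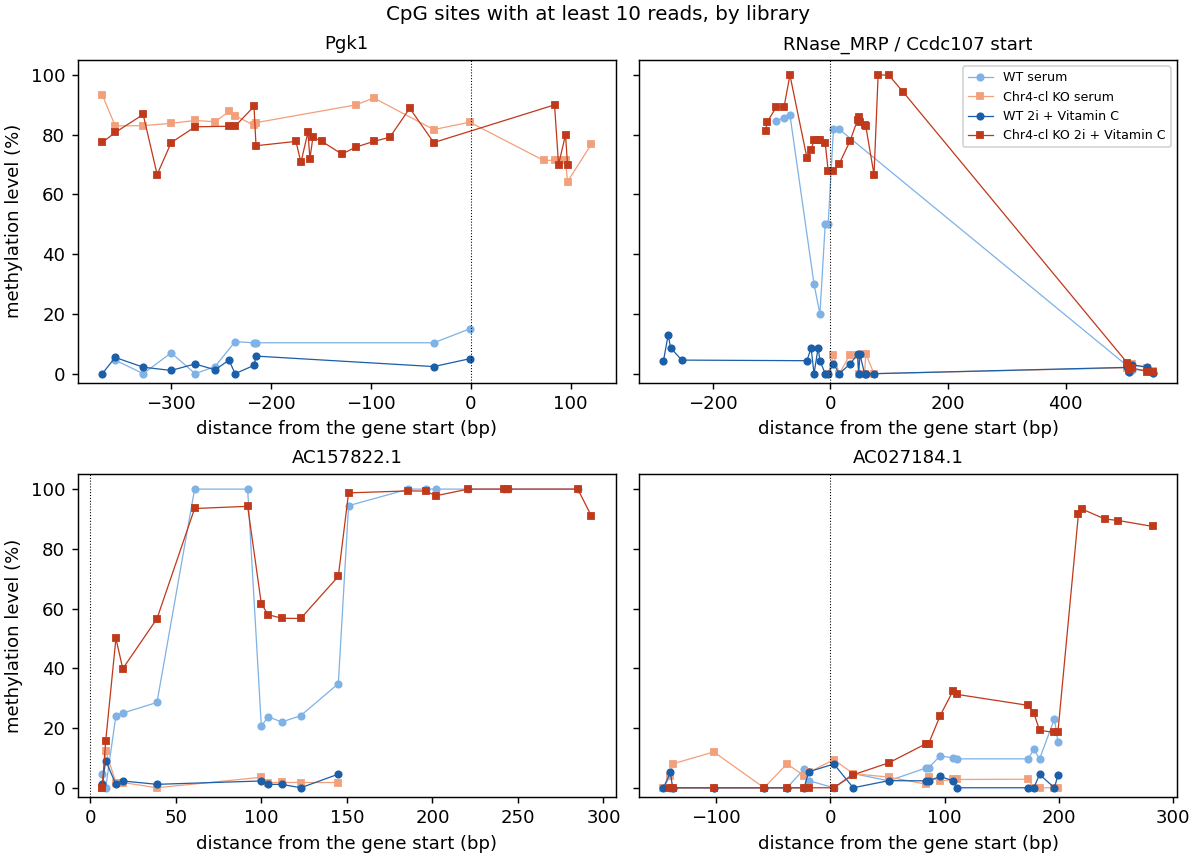
Methylation level (%, y axis) of single CpG sites with at least 10 reads against the distance from the gene start in bp (x axis, positive into the gene) in the 4 libraries. At Pgk1 both KO libraries lie above 60% and both WT libraries below 20%, while at RNase_MRP and AC157822.1 the high libraries are WT serum and KO 2i + Vitamin C.

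Actg1, which encodes cytoplasmic gamma-actin, had 7 higher sites within 1 kb of its annotated starts at chr11:120209007-120209337. Pooled methylation was 56.7% of 344 reads in KO 2i + Vitamin C and 1.95% of 205 reads, 1.61% of 186 reads and 1.82% of 385 reads in WT serum, KO serum and WT 2i + Vitamin C. Only 1 library was high here. The methylation was not even: positions between these sites, 622 to 650 bp from the gene start, were at 0% of 10 to 12 reads in KO 2i + Vitamin C. At 277 to 321 bp that library was at 0 to 4% of 150 to 153 reads. Actg1 also had 12 positions with at least 10 reads in KO 2i + Vitamin C and none in WT 2i + Vitamin C. They held 152 reads in KO 2i + Vitamin C (42.8% methylated) and 2 in WT serum. Actin genes have paralogs and processed pseudogenes, so the placement of these reads is uncertain.

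Most other regions with many higher sites had the pattern of the whole set, with high serum methylation in both genotypes. They also had a smaller fall in KO, which the rule favours. In an exon of Fat1, a protocadherin-family adhesion gene, 10 sites were at 91.5% in WT serum, 96.8% in KO serum, 17.8% in WT 2i + Vitamin C and 44.8% in KO 2i + Vitamin C. The last level is from only 201 reads, which are 20 or 21 reads at each of 10 neighbouring sites. The 9 sites near Olfr585, an olfactory receptor gene, were at 86.8%, 88.3%, 30.3% and 61.4% in the same order. For 8 intergenic sites the nearest start was that of Mup18, a major urinary protein gene, from which they lie at -11481 to -11152 bp. These 8 sites were at 89.9%, 96.2%, 13.7% and 47.5%. In an intron of Zswim2 8 sites were at 65.2%, 73.9%, 21.9% and 53.5%. In an intron of Dlg2, a synaptic scaffold gene, 7 sites were at 80%, 80.04%, 24.9% and 77.5%, with only 45 reads in WT serum. Each of these but the Fat1 region belongs to sequence group 1 or 2. The pooled levels hide 1 site each in Zswim2 and Dlg2 that rose in KO. The Zswim2 site at position 83770448 was at 0% of 18 reads in KO serum and 85.7% in KO 2i + Vitamin C. The Dlg2 site at position 98013456 was at 17.9% and 95.3%.

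Intergenic sites for which N6amt1, a methyltransferase gene, has the nearest start gave 1 of the uneven cases. They lie at positions -51653 to -51532 relative to that start. The 7 sites were at 71.3% of 272 reads in WT serum, 56.2% of 1929 reads in KO serum, 10.9% of 3745 reads in WT 2i + Vitamin C and 59.9% of 309 reads in KO 2i + Vitamin C. The reads thus varied from 272 to 3745 between libraries for a sequence that occurs in many copies. The remaining regions with the most sites, named by the nearest or overlapping gene, were Gm8402, Melk, SNORA17 (chromosome 10), Gm14267, Cxcl13, 7SK (chromosome 15), AC132270.1, Cntn4, Gm11884 and G6pd2, with 5 to 7 sites each. All but Melk and Cntn4 are intergenic, and several lie far from the gene that names them. Relative to the start of that gene, the first site was at 588477 bp for SNORA17 and -520335 bp for G6pd2. It was at 148431 bp for AC132270.1 and 35408 bp for 7SK. The pooled levels of these remaining regions in KO 2i + Vitamin C ran from 47.3% at AC132270.1 to 84.1% at G6pd2. In WT they ran from 13.7% at Cxcl13 to 46.6% at G6pd2. Of these, Gm14267 and Cntn4 belong to sequence group 7 and had the lowest serum levels, with 12.5% and 52.3% in WT and 0% of 18 reads and 15.3% of 85 reads in KO. The 18 reads are 3 reads at each of 6 neighbouring sites, and the 85 reads are 17 at each of 5.

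**Figure D5:**
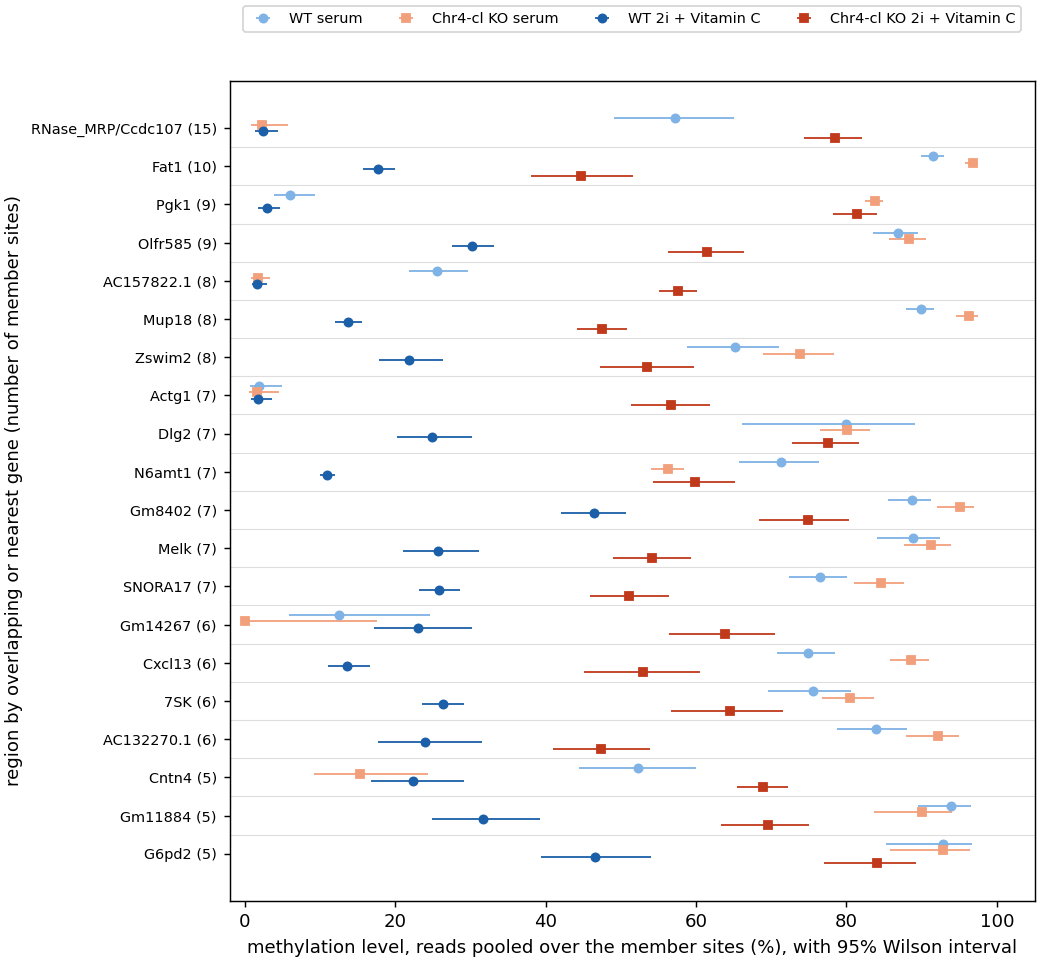
Methylation level pooled over the higher sites of a region (%, x axis) with 95% Wilson intervals for the 20 regions with the most higher sites (y axis, named by overlapping or nearest gene, number of sites in parentheses) in the 4 libraries. WT 2i + Vitamin C is below KO 2i + Vitamin C in each by the choice of sites, and KO serum is far from WT serum at RNase_MRP, Pgk1, AC157822.1 and Cntn4.

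Of 96 regions with at least 3 higher sites covered in both serum libraries, 69 had a higher pooled level in KO serum and 27 a lower one, with a median difference of 4.53 points. By single sites, KO was above WT in serum at 65.6% of all sites and at 64.3% of the lower sites. The direction is thus that of most covered sites, and regions of other sites were not counted. After Pgk1, the largest serum differences were at chr3:119412440-119412484 (54.0% in WT and 91.7% in KO), chr6:83791648-83791692, chr2:80997382-80997551 (53.0% and 88.3%) and chr3:149748723-149748769 near Rpsa-ps10 (63.4% and 94.4%), all intergenic. At the chromosome 6 region the 4 sites were at 24.9% in WT serum, 61.9% in KO serum, 3.73% in WT 2i + Vitamin C and 43.3% in KO 2i + Vitamin C, and all 3 sites tested there were called higher in serum.

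The most negative differences were in an intron of Itgbl1, at AC157822.1, in an intron of 1700007B14Rik, at the N6amt1 region and in Gm17043. The 3 sites of Itgbl1 were at 80.8% of 312 reads in WT serum, 50.4% of 997 reads in KO serum, 14.6% of 1501 reads in WT 2i + Vitamin C and 39.2% of 245 reads in KO 2i + Vitamin C, and all 3 were called lower in KO serum. The 1700007B14Rik region, of sequence group 7, was at 85.0% in WT serum and 68.1% in KO serum, with 1094 reads in KO 2i + Vitamin C and 240 to 298 in the other libraries.

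Promoters held few of the higher sites beyond those already described. The 195 sites within 1 kb of a start belonged to 132 genes, 98 of them protein coding, and 108 genes had a single site. Only 9 genes had at least 3, and Ccdc107, Pgk1, AC157822.1, Actg1 and AC027184.1 together held 44 of the 195. The others with at least 3 were Gm17462, 3110070M22Rik, Slc45a1 and Smtn. Higher sites near starts averaged 63.6% in WT and 70.1% in KO serum, below the 80.3% and 85.0% of the intergenic ones.

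Counts at the listed gene groups were small, and are read beside the shares over all sites of 0.653% higher and 2.08% lower, or 0.102% and 0.526% near transcription starts. Of the imprinted genes, Gnas had 2 of its 101 covered sites higher, in an exon, at 21.9% in WT and 42.2% in KO 2i + Vitamin C and 46.3% and 46.7% in WT and KO serum, and Mest had 1 of 12. In all, 3 of 970 sites at imprinted genes (0.309%) were higher and 68 (7.01%) lower. None of 327 sites at germline genes, 422 at naive pluripotency genes or 639 at primed and early differentiation genes was higher, with 13, 3 and 5 lower sites. Dnmt1, the maintenance methyltransferase, had 1 higher site of 19, and Hoxc13 1 of 41, the only one among 728 sites at Hox genes. Clustered protocadherins had 2 of 251 (0.797%), 1 each in Pcdha11 and Pcdhb17. KRAB-ZFP and other Zfp genes had 9 of 4454 (0.202%), and 54 lower sites.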

How the data were processed

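The 4 RRBS-seq libraries (both genotypes, both media, 1 per group) were used. The authors used Trim Galore for trimming and Bismark for alignment to mm9, and deposited, per CpG dyad, the read count, the methylated read count and the methylated fraction. Counts were used as deposited and levels recomputed from them. The deposited WT serum and KO 2i + Vitamin C files each held a second joined table (1161870 and 1575598 rows), which gave no site with 20 reads, and positions listed more than once were left out. Column 2 matched a CpG cytosine of NCBIM37. Genes came from GENCODE vM1. Serum calls used Fisher's exact test per site, adjusted after Benjamini and Hochberg (scipy 1.17.1, numba 0.67.0), tested on simulated data. Sequence groups used blastn 2.17.0 (at least 100 bp and 80% identity between regions, 80 bp for sites). Single sites rest on 20 or more reads, and intervals cover counting error only.

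Regions named are the 20 with most sites, the 5 with the largest and the 5 with the smallest serum difference among those with 3 sites covered in serum, up to 3 genes a list (except Zfp genes), and the sites at the edge of the rule. AC027184.1 and the misc_RNA class were added after their values were seen. Gene lists count sites within 1 kb of a gene. The sequence of 1 region is not reported here. The members and lists were chosen with earlier results of these data known. Alternative coverage minimums, thresholds, chromosomes and pooling were tried.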

Additional observations from a re-analysis of the deposited data

Results flagged for a closer look

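Several regions higher in KO 2i + Vitamin C were lower in KO serum, so the difference between genotypes had opposite signs in the media. The difference in serum, KO minus WT over all reads, was -54.93 points at RNase_MRP, -36.96 at the Cntn4 region, -30.42 at Itgbl1 and -23.81 at AC157822.1, and whether the genotype difference differed between media was not tested, since each medium has 1 library per genotype. The libraries high at RNase_MRP and AC157822.1, WT serum and KO 2i + Vitamin C, are those whose files hold a second joined table and those that alone have highly methylated reads at further positions of these genes. The part of the reads at further positions in the opposite signs was not tested. The Cntn4 region had 85 reads in KO serum, 17 at each of 5 neighbouring sites, and Cntn4 and Itgbl1 lie in sequences with many copies. Read number, which was not part of the methylation comparison, was 9.44 times as high, per 1000000 reads of the library, in KO as in WT serum at the Pgk1 region.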

How the results depend on the processing

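No result turned its direction under any alternative. The number of higher sites was 6757 with at least 10 reads, 283 with at least 50 reads, 532 at 30 points and 1137 without multicopy sequence, which was chosen after seeing the data, against 15577, 1608, 1687 and 5283 lower sites. Thinning both libraries to equal coverage gave 2826 higher and 8299 lower sites, so the smaller group remained the smaller one in each of these settings. The mean serum difference was 3.68 points with at least 10 and 3.29 with at least 50 reads in serum, 2.27 with pooled reads, 3.89 with 1 value per region, 4.70 for sites at 30 points, 3.06 for sites with 50 reads in 2i + Vitamin C, and 3.72 without multicopy sequence. These 7 values lay outside the counting error interval of 3.92 to 4.66 points, and 2 other alternatives lay inside it. The mean over all sites, 2.96 points, was computed in the main setting only. Calls higher in KO serum numbered 103 of 1389 sites with no test, against 4.57% of all sites. With at least 50 reads they numbered 18 of 479 sites, against 3.08% of all sites. Calls lower in KO serum numbered 31 of 1389 sites with no test, against 0.278% of all sites. Without multicopy sequence 27 calls higher in KO serum remained, and without AC157822.1 13 calls lower. The share over all sites was not computed for these last settings. The share near starts was 2.83% from 250 bp before to 50 bp after a start (23.97% of all sites) and 12.97% within 2 kb (65.1% of all sites). No paired analysis was possible because each group has 1 library. With 20 to 29 reads in KO at 46.5% of the sites, single levels have a wide counting error.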
